A study of Homo sapiens with 6 samples.

Results

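The genes described here are 55 genes of DNA repair and of the DNA damage checkpoint, chosen by name for their known roles in homologous recombination, the Fanconi anaemia pathway, mismatch repair, end joining, base and nucleotide excision repair, direct reversal, and break sensing and checkpoint signalling. All 55 were found among the 60725 rows of each table, and all 55 were among the 14781 genes whose mean over the 6 libraries reached 1 TPM and that were tested. TPM, the unit of the tables, is a transcript's share of its library after division by transcript length. MHCC97L, an established cell line from human hepatocellular carcinoma, was grown as xenografts in a control group (Ctrl) and a group given recombinant human lumican (rhLUM). Each group had 3 libraries, labelled A, B and C. Lumican is a matrix proteoglycan that cells secrete, and the comparison asks how tumour expression differed when it was added. The sources used here do not give dose, route, duration, host strain or the make-up of the control treatment, and do not say whether A, B and C were separate tumours. The p-values therefore reflect only how these samples varied, and that variation may be technical.

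Cells keep separate repair routes for separate kinds of damage. Homologous recombination copies an intact sister chromatid to mend a break, end joining ligates the broken ends directly, and the Fanconi anaemia pathway unhooks crosslinked strands. Mismatch repair removes replication errors, base excision repair removes single altered bases, and nucleotide excision repair cuts out bulky lesions, while the kinases ATM and ATR sense breaks and stalled forks and act through CHEK2 and CHEK1. Many of these genes are expressed mainly in dividing cells, where DNA is replicated and sister chromatids are at hand.

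Transcripts of repair genes moved in both directions between the groups, with LIG3, XRCC6, FANCC and CHEK1 the highest with rhLUM and FANCA, XPA and FANCG the lowest. By limma on log2(TPM + 1), with an adjusted p under 0.05 as the threshold, 28 of the 55 genes rose with rhLUM, 9 fell and 18 did not pass (67.3% passed). Over all genes tested 66.8% passed, 44.5% higher and 22.3% lower, so the share of repair genes that passed (50.9% higher and 16.4% lower) was close to that background. The groups did not overlap for 30 repair genes that were higher and 10 that were lower, against 71.4% of all genes tested (47.0% higher and 24.3% lower). The median log2 fold change, rhLUM minus Ctrl, was 0.18 for the repair genes and 0.16 for all genes tested. Summed over the 55 genes, the level was 1515 ± 11.2 TPM in Ctrl and 1930 ± 15.1 TPM in rhLUM (SD, n = 3 a group). In these bulk tumours, fewer cells of a type and less RNA per cell cannot be told apart.

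**Figure D1:**
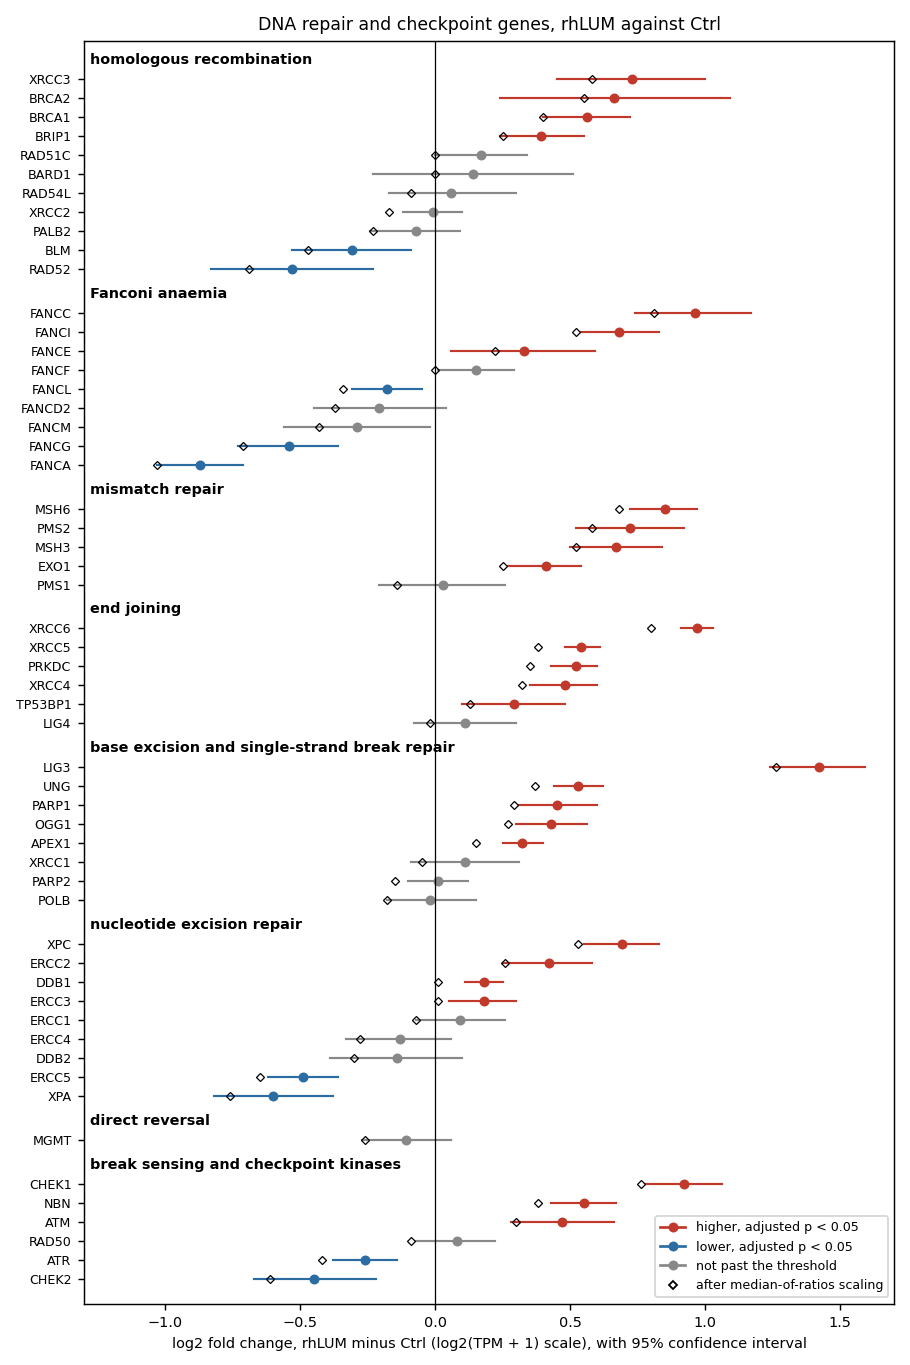
Log2 fold change of each of the 55 genes, rhLUM minus Ctrl, on the log2(TPM + 1) scale, grouped by pathway. Filled points are the values as deposited with their 95% confidence intervals, coloured by limma call, and open diamonds are the values after median-of-ratios scaling. LIG3 stands highest at 1.42 and FANCA lowest at -0.87, and most diamonds lie to the left of their points.

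Where a gene stands depends in part on how the libraries are put on one scale. Mitochondrial transcripts took 20.6 ± 0.081% of a Ctrl library's TPM and 14.4 ± 0.10% of a rhLUM library's. Median-of-ratios scaling, which sets the typical gene level between libraries, lowered the median log2 fold change of all genes by 0.15. The repair genes then divided into 24 higher, 17 lower and 14 not past the threshold (all genes 65.2%, with 34.3% higher and 30.9% lower), and their median became 0.01. Among the repair genes that passed, 75.7% were higher as deposited and 58.5% after scaling, against 66.6% and 52.6% of all genes that passed. Rescaling without mitochondrial genes gave 24 higher and 13 lower repair genes (all genes 64.1%, 36.9% higher and 27.1% lower).

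Transcript length also mattered. Fold change rose with length over all genes that had a length (Spearman's rho across genes 0.30, n = 12834) and less so over the repair genes (0.20, n = 55), whose median transcript was longer, 2952 against 2474 bases. These are correlations across genes of the same libraries, and genes are not independent replicates. After fold changes were corrected for length and GC content, 18 repair genes were higher and 22 lower, 45.0% of those that passed being higher (all genes 66.1%, 33.7% higher and 32.4% lower). Genes with the longest transcripts moved most. PRKDC went from 0.52 to -0.05, BRCA2 from 0.66 to 0.08, RAD50 from 0.08 to -0.46 and ATR from -0.26 to -0.80. TP53BP1 passed as higher before the correction and as lower after it (-0.21). The correction also shifted the median log2 fold change of all genes by -0.16, so part of each move was not particular to long transcripts. After median-of-ratios scaling alone the values were 0.35 for PRKDC, 0.55 for BRCA2, -0.09 for RAD50, -0.42 for ATR and 0.13 for TP53BP1.

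**Figure D2:**
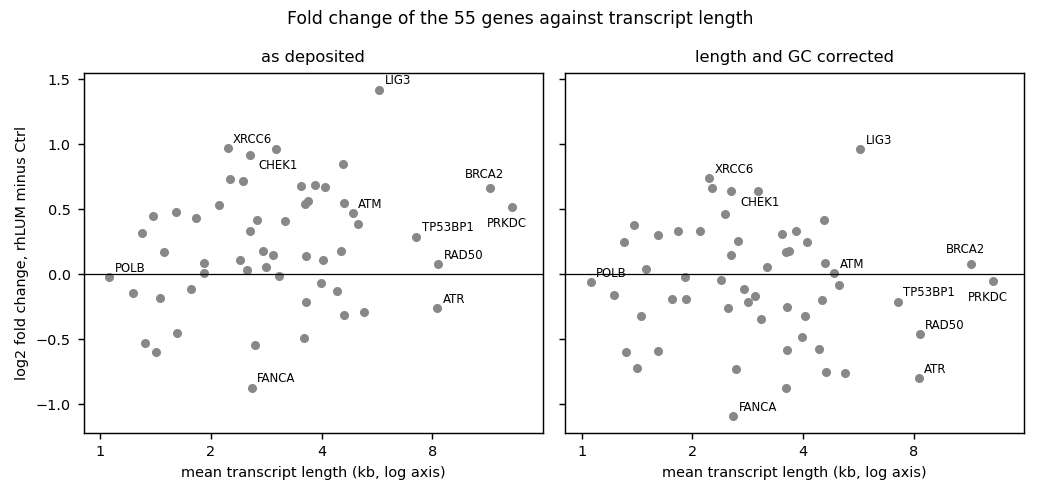
Log2 fold change of each repair gene against its mean transcript length in kilobases (log axis), as deposited on the left and after correction for length and GC content on the right. PRKDC, BRCA2, RAD50, ATR and TP53BP1, with the longest transcripts, lie near or below 0 on the right, while LIG3, XRCC6 and CHEK1 stay above it.

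Of the 37 repair genes that passed as deposited, 27 passed in the same direction after all 3 of these treatments. The 18 higher were BRCA1, XRCC3, FANCC, FANCI, MSH3, MSH6, PMS2, XRCC4, XRCC5, XRCC6, LIG3, PARP1, OGG1, UNG, APEX1, ERCC2, XPC and CHEK1. The 9 lower were RAD52, BLM, FANCA, FANCG, FANCL, ERCC5, XPA, ATR and CHEK2. All 3 treatments shifted the median log2 fold change of all genes down (-0.15 by scaling, -0.1 without mitochondrial genes and -0.16 by the length and GC correction). A lower call was therefore less open to loss than a higher one, and its keeping is the weaker check. Tested against a fold change of 1.2 in place of no change, 19 repair genes were higher and 4 lower (all genes 40.6%, 28.3% higher and 12.3% lower). LIG3 was the 1 repair gene called as deposited with a fitted log2 fold change of at least 1, a size that 6.16% of all genes tested reached. FANCC had a fitted value of 0.96 on the log2(TPM + 1) scale, though the ratio of its mean TPM was 2.14. After the length and GC correction LIG3 stood at 0.96, XRCC6 at 0.74, FANCC at 0.64 and CHEK1 at 0.64.

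**Figure D3:**
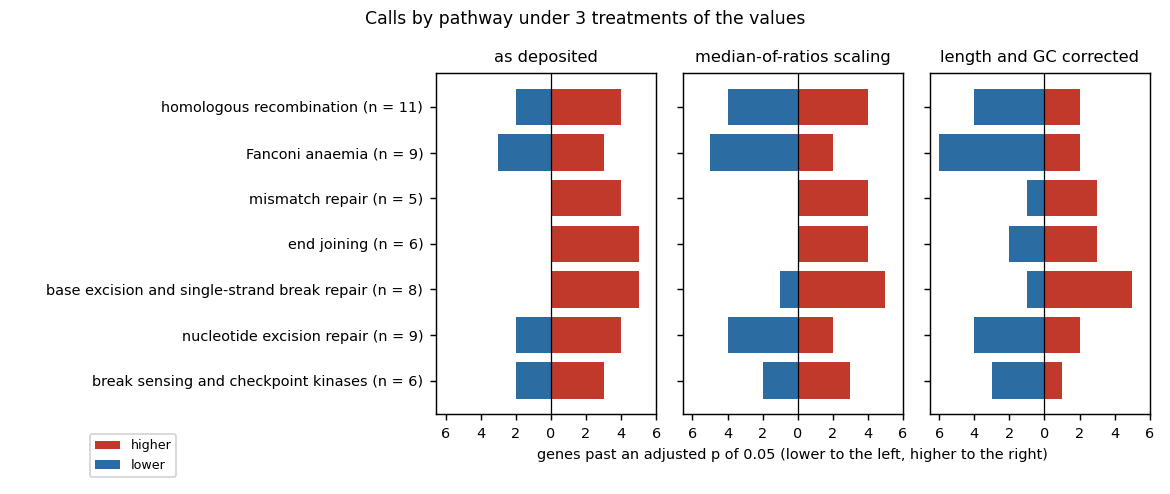
Number of genes of each pathway past an adjusted p of 0.05, lower to the left and higher to the right, for the values as deposited, after median-of-ratios scaling and after correction for length and GC content. Base excision repair keeps 5 higher genes in all panels, while the Fanconi anaemia pathway goes from 3 lower genes to 5 and then 6.

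Promoter sequence was available from RefSeq (GRCh38.p14), as the 250 bases before and 50 after 1 listed start site, for 50 of the 55 genes. The windows were searched on both strands for CCAAT, the box bound by NF-Y, for TTTGAA, a cell cycle homology element, and for TTTNGCGC, a core sequence of E2F sites. CCAAT was in 46.0% of the repair windows and in 34.6% of all 35116 windows. TTTGAA was in 8.0% against 15.2%, and TTTNGCGC in 10.0% against 1.79%. The repair windows and all windows were not matched for GC content, so base composition may account for part of these differences, which was not tested. The 5 repair genes with TTTNGCGC were FANCC, MSH3, EXO1 and XRCC6, which rose, and CHEK2, which fell, so the same letters stood in the windows of genes that moved both ways. These windows are shown because they share that motif, with capitals marking every match to any of the 3 motifs. They lie at chr9:95317660-95317959 (minus strand), chr5:80654402-80654701 (plus), chr1:241847954-241848253 (plus), chr22:41621045-41621344 (plus) and chr22:28741771-28742070 (minus), and each is written 5′ to 3′ on the strand of its gene.
FANCC: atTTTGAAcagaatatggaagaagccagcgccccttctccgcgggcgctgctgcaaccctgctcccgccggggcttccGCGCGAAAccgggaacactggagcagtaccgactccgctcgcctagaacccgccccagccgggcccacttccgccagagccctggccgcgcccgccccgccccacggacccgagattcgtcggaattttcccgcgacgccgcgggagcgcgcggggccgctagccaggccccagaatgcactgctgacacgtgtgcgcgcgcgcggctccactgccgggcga
MSH3: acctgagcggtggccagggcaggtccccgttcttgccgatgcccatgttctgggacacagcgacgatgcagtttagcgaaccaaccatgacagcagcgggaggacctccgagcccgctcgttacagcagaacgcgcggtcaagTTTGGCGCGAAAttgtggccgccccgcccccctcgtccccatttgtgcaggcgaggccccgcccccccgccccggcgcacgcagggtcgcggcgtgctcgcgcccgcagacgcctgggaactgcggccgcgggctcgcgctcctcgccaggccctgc
EXO1: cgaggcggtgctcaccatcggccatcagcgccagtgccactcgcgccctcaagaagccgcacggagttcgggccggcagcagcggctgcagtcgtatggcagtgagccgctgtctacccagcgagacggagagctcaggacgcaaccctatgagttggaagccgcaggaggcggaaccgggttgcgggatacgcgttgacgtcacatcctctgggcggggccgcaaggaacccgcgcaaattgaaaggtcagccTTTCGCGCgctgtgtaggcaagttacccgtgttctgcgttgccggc
XRCC6: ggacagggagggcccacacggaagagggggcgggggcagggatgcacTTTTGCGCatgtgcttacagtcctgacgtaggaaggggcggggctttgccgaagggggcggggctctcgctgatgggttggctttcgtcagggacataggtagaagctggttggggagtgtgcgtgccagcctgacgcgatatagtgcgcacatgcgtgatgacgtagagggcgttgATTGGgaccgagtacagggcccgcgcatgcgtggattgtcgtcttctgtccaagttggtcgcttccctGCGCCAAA
CHEK2: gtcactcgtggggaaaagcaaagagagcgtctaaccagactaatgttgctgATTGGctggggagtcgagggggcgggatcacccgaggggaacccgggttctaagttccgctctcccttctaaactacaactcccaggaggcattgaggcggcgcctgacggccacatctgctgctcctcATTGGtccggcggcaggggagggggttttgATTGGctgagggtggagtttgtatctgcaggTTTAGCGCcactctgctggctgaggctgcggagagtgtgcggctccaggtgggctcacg
In MSH3 a forward and a reverse match overlapped in 1 stretch that began 107 bases before the start site. CHEK2 held 3 CCAAT boxes in reverse orientation, beginning 199, 70 and 40 bases before its start, and its TTTNGCGC match began 9 bases before it. A match is a description of the letters only.

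Genes of end joining differed most in summed level among the pathways, from 341 ± 2.89 TPM in Ctrl to 543 ± 8.46 TPM in rhLUM. Of 6 genes, 5 rose and none fell as deposited, 4 rose and none fell after scaling, and 3 rose and 2 fell after correction for length and GC content. As deposited 83.3% passed, against 66.8% of all genes tested. XRCC6, the Ku70 subunit that with XRCC5 encircles a broken DNA end, lies at chr22:41621119-41664048, plus strand (GRCh38, GENCODE 29) and was the most abundant repair gene. It was measured at 106, 104 and 108 TPM in Ctrl A, B and C and 208, 211 and 207 TPM in rhLUM A, B and C. All 3 rhLUM libraries stood far above all 3 Ctrl libraries, and the log2 fold change was 0.97 ± 0.03 (SE, adjusted p = 2.32e-07). XRCC5, the Ku80 subunit, was at 95.5, 97.8 and 99.0 TPM in Ctrl A, B and C and 145, 143 and 139.9 TPM in rhLUM A, B and C. Its groups did not overlap either, with a log2 fold change of 0.54 ± 0.03 (SE, adjusted p = 3.48e-06), and 0.17 after correction for length and GC content. PRKDC, the catalytic subunit of the DNA-dependent protein kinase that Ku recruits, was at 104, 106 and 104 TPM in Ctrl A, B and C and 147, 158 and 146 TPM in rhLUM A, B and C. Every rhLUM library was above every Ctrl library, with a log2 fold change of 0.52 ± 0.04 (SE, adjusted p = 1.34e-05), and the adjusted p was 0.251 after correction for length and GC content.

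At the ligation step 1 of the partners passed. XRCC4, the scaffold of the end-joining ligase, rose from 10.7 to 15.3 TPM (log2 fold change 0.48, adjusted p = 0.000183, and 0.30 after the length and GC correction). LIG4, the ligase it holds, was at 3.89 ± 0.10 TPM in Ctrl and 4.29 ± 0.222 TPM in rhLUM, a log2 fold change of 0.11 that did not pass (adjusted p = 0.252). TP53BP1, which shields broken ends from resection, rose from 18.3 to 22.5 TPM as deposited, and its call was lost without Ctrl A (adjusted p = 0.0517), Ctrl C (0.052) or rhLUM A (0.0507). Its exons share 28.9% of their length with TUBGCP4 on the other strand, and the sources used here do not say whether counting used strand.

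Mismatch repair genes rose in 4 of 5 cases as deposited (median log2 fold change 0.67) and after scaling (0.52), and in 3 of 5 after correction for length and GC content, with 1 lower. As deposited 80.0% of mismatch repair genes passed, against 66.8% of all genes tested. The summed level of the 5 genes was 90.5 ± 2.31 TPM in Ctrl and 139 ± 5.65 TPM in rhLUM. MSH6, which pairs with a common partner to recognise single mismatches, was at 41.9, 43.0 and 44.9 TPM in Ctrl A, B and C and 73.0, 81.5 and 81.4 TPM in rhLUM A, B and C. The lowest rhLUM library lay well above the highest Ctrl library, with a log2 fold change of 0.85 ± 0.05 (SE, adjusted p = 9.19e-06), and 0.42 after the length and GC correction. FBXO11 on the other strand shares 21.0% of its exon length. MSH3, its alternative for larger loops and the gene with the overlapping matches above, was at 5.06, 5.66 and 4.97 TPM in Ctrl A, B and C and 8.57, 8.90 and 9.16 TPM in rhLUM A, B and C. Its log2 fold change was 0.67 ± 0.07 (SE, adjusted p = 0.000146) with no overlap of groups, and 0.25 after that correction. The ratio of MSH6 to MSH3 within a library (8.30 ± 0.719 in Ctrl, 8.85 ± 0.321 in rhLUM) overlapped between the groups.

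PMS2, an endonuclease that acts after mismatch recognition, was at 4.97, 4.76 and 4.35 TPM in Ctrl A, B and C and 7.71, 9.11 and 8.40 TPM in rhLUM A, B and C. The groups were apart and the log2 fold change was 0.72 ± 0.08 (SE, adjusted p = 0.000218), and 0.46 after that correction. This value is uncertain because the pseudogenes PMS2P1, PMS2P3 and PMS2CL, which share its sequence, were listed at 176%, 135% and 108% of its level, and counting could divide reads among them. PMS1, a related protein, was at 20.4 ± 3.04 TPM in Ctrl and 20.6 ± 0.524 TPM in rhLUM, a log2 fold change of 0.03 (adjusted p = 0.837). EXO1, the exonuclease that removes the mismatched strand, rose from 16.9 to 22.8 TPM (log2 fold change 0.41, adjusted p = 0.000592), and its value was 0.25 after scaling and after correction for length and GC content was 0.06 (adjusted p = 0.409).

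Among base excision and single-strand break repair genes, 5 of 8 rose and none fell as deposited (62.5% passed, against 66.8% of all genes tested). After scaling and after the length and GC correction 5 were again higher, with 1 lower in each (PARP2). LIG3, which seals nicks in the nucleus and in mitochondria, lies at chr17:34980494-35009743, plus strand, and had the largest fold change of the 55 genes. It was at 9.66, 8.26 and 8.10 TPM in Ctrl A, B and C and 23.9, 24.6 and 25.9 TPM in rhLUM A, B and C. All rhLUM libraries stood far above all Ctrl libraries, and the log2 fold change was 1.42 ± 0.07 (SE, adjusted p = 3.86e-06). The exons of LIG3 share 43.8% of their length with RFFL on the opposite strand, itself 34.5 TPM in Ctrl and 48.5 TPM in rhLUM, so reads of the pair cannot be told apart if strand was not used.

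UNG, the glycosylase that removes uracil from DNA, was at 46.2, 44.6 and 43.7 TPM in Ctrl A, B and C and 63.3, 66.2 and 66.4 TPM in rhLUM A, B and C. The groups did not overlap, and the log2 fold change was 0.53 ± 0.04 (SE, adjusted p = 1.63e-05), and 0.33 after the length and GC correction. APEX1, the endonuclease that cuts at the abasic site left behind, was at 106, 112 and 111 TPM in Ctrl A, B and C and 135, 137 and 141 TPM in rhLUM A, B and C. Its replicates were tight and its groups apart, at a log2 fold change of 0.32 ± 0.03 (SE, adjusted p = 8.5e-05), and 0.15 after scaling. OGG1, the glycosylase for oxidised guanine, and PARP1, the polymerase that signals a nick, rose from 25.6 to 35.0 TPM (log2 fold change 0.43) and from 53.3 to 73.2 TPM (0.45), values that became 0.27 and 0.29 after scaling. Of their partners, the following did not pass as deposited: XRCC1, the scaffold that carries LIG3 (0.11, adjusted p = 0.287), PARP2 (0.01, 0.885) and POLB, the gap-filling polymerase (-0.02, 0.862).

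Homologous recombination genes divided, with 4 of 11 higher, 2 lower and 5 not past the threshold (54.5% passed, against 66.8% of all genes tested). The median log2 fold change was 0.14, and the summed level was 159 ± 6.79 TPM in Ctrl and 174 ± 4.66 TPM in rhLUM. After scaling 4 were higher and 4 lower, and after the length and GC correction 2 were higher and 4 lower. BRCA1, a ubiquitin ligase that promotes resection of broken ends, was at 18.7, 17.9 and 16.9 TPM in Ctrl A, B and C and 27.1, 28.7 and 24.7 TPM in rhLUM A, B and C. The groups did not overlap, and the log2 fold change was 0.56 ± 0.07 (SE, adjusted p = 0.000253), and 0.18 (adjusted p = 0.0468) after correction for length and GC content. BRIP1, a helicase bound by BRCA1, was at 5.49, 5.44 and 5.03 TPM in Ctrl A, B and C and 7.38, 7.35 and 7.17 TPM in rhLUM A, B and C. Its replicates were tight, with a log2 fold change of 0.39 ± 0.07 (SE, adjusted p = 0.0015), 0.25 after scaling and -0.08 after correction for length and GC content. XRCC3, a paralogue of the strand exchange protein, was at 6.25, 7.37 and 8.04 TPM in Ctrl A, B and C and 14.2, 10.95 and 12.7 TPM in rhLUM A, B and C. The spread was wider but the groups stayed apart, with a log2 fold change of 0.73 ± 0.12 (SE, adjusted p = 0.00111), and its exons share 45.3% of their length with the more abundant KLC1 on the other strand.

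BRCA2, which loads the strand exchange protein, was among the least abundant repair genes at 1.75 ± 0.404 TPM in Ctrl and 3.38 ± 0.831 TPM in rhLUM, with a log2 fold change of 0.66 ± 0.18 (SE, adjusted p = 0.0135), and 0.08 (adjusted p = 0.714) after that correction. Of the genes that fell, RAD52, an annealing protein, was at 20.1, 16.5 and 18.9 TPM in Ctrl A, B and C and 11.2, 11.2 and 15.3 TPM in rhLUM A, B and C. The rhLUM libraries were all below the Ctrl libraries, although rhLUM C stood closer to them than the other two, with a log2 fold change of -0.53 ± 0.13 (SE, adjusted p = 0.00831). BLM, a helicase that dissolves joined recombination intermediates, was at 18.4, 15.7 and 16.3 TPM in Ctrl A, B and C and 13.0, 15.1 and 12.03 TPM in rhLUM A, B and C. The gap between rhLUM B and the lowest Ctrl library was small, and the log2 fold change of -0.31 ± 0.09 (SE, adjusted p = 0.0224) lost its call without Ctrl A (adjusted p = 0.0729), rhLUM A (0.0626) or rhLUM C (0.0675), which leaves 1 lower gene in the pathway. After scaling it stood at -0.47, and after the length and GC correction at -0.75.

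The other 5 recombination genes did not pass as deposited. PALB2, which bridges BRCA1 and BRCA2, was at 14.3 ± 1.08 TPM in Ctrl and 13.6 ± 0.631 TPM in rhLUM (log2 fold change -0.07), and XRCC2 at 16.9 ± 0.581 TPM in Ctrl and 16.8 ± 0.125 TPM in rhLUM (-0.01). Both passed as lower after scaling and after the length and GC correction. BARD1, the partner of BRCA1 (0.14), passed as higher only without Ctrl B (adjusted p = 0.0185), and RAD51C (0.17) only without Ctrl A (0.0269) or rhLUM B (0.0268). RAD54L, a motor of strand exchange, was at 6.54 ± 0.449 TPM in Ctrl and 6.89 ± 0.898 TPM in rhLUM (0.06, adjusted p = 0.611).

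In the Fanconi anaemia pathway the same complex held genes that moved in opposite directions. Of 9 genes 3 rose, 3 fell and 3 did not pass as deposited (66.7% passed, against 66.8% of all genes tested). The counts were 2 higher and 5 lower after scaling and 2 higher and 6 lower after the length and GC correction. The summed level was 178 ± 6.91 TPM in Ctrl and 166 ± 4.24 TPM in rhLUM. FANCA, a core complex subunit at chr16:89737549-89816657, minus strand, was at 28.3, 29.1 and 28.2 TPM in Ctrl A, B and C and 13.9, 16.7 and 15.1 TPM in rhLUM A, B and C. The rhLUM libraries were all far below the Ctrl libraries, and the log2 fold change of -0.87 ± 0.07 (SE, adjusted p = 2.5e-05) was the lowest of the 55. ZNF276, whose exons on the other strand cover 22.4% of those of FANCA, was at 11.6 TPM in Ctrl and 6.09 TPM in rhLUM. FANCC, another core subunit, was at 4.32, 5.08 and 4.99 TPM in Ctrl A, B and C and 9.20, 10.6 and 10.9 TPM in rhLUM A, B and C. It moved the other way, with every rhLUM library above every Ctrl library and a log2 fold change of 0.96 ± 0.09 (SE, adjusted p = 7.43e-05).

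FANCI, which is ubiquitinated together with FANCD2 when the pathway is active, was at 25.4, 26.5 and 26.6 TPM in Ctrl A, B and C and 43.3, 45.9 and 39.0 TPM in rhLUM A, B and C. The groups were apart, with a log2 fold change of 0.68 ± 0.06 (SE, adjusted p = 6.12e-05), and 0.31 after the length and GC correction. Its partner FANCD2 was at 27.7, 34.7 and 31.8 TPM in Ctrl A, B and C and 30.5, 26.3 and 24.4 TPM in rhLUM A, B and C. Its groups overlapped, and the log2 fold change of -0.21 did not pass (adjusted p = 0.118), except as lower without Ctrl A (0.0426) or without rhLUM A (0.0413), after scaling (0.0161), without mitochondrial genes (0.0343) and after the length and GC correction (0.00184). FANCG, a core subunit that binds FANCA, fell from 43.5 to 29.5 TPM (log2 fold change -0.54, adjusted p = 0.000659).

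FANCL, the ubiquitin ligase of the complex, fell by a small amount, from 27.2 to 23.9 TPM (log2 fold change -0.18, adjusted p = 0.0222), and lost its call without Ctrl B (0.0672), Ctrl C (0.0544), rhLUM B (0.0539) or rhLUM C (0.0594). After scaling it stood at -0.34 and after the length and GC correction at -0.32. VRK2 on the other strand shares 26.6% of its exon length. FANCE, the least abundant of the 55 genes at 1.64 ± 0.104 TPM in Ctrl and 2.31 ± 0.0802 TPM in rhLUM, rose with a log2 fold change of 0.33 (adjusted p = 0.0344), a call that no fit with 5 of the 6 libraries kept (adjusted p from 0.0551 to 0.0853). FANCF (0.15, adjusted p = 0.0608) and FANCM, the translocase that senses stalled forks (-0.29, 0.0576), did not pass, though the former passed as higher without rhLUM A (0.0495) and the latter as lower without Ctrl B (0.00419). After scaling FANCM passed as lower (adjusted p = 0.0135), and after the length and GC correction both did (0.0423 for FANCF and 0.000908 for FANCM).

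Nucleotide excision repair genes showed opposite changes at successive steps. Of 9 genes 4 rose and 2 fell as deposited, while after scaling, and again after the length and GC correction, 2 were higher and 4 lower. The share that passed as deposited, 66.7%, was close to the 66.8% of all genes tested (44.5% higher and 22.3% lower). XPC, which finds the distorted helix, was at 17.7, 17.1 and 17.5 TPM in Ctrl A, B and C and 27.6, 31.1 and 27.6 TPM in rhLUM A, B and C. The groups did not overlap and the log2 fold change was 0.69 ± 0.06 (SE, adjusted p = 3.95e-05), and 0.33 after the length and GC correction. XPA, which verifies the lesion at the next step, was at 14.8, 14.8 and 15.2 TPM in Ctrl A, B and C and 9.94, 8.09 and 10.6 TPM in rhLUM A, B and C. All 3 rhLUM libraries were below all 3 Ctrl libraries, with a log2 fold change of -0.60 ± 0.09 (SE, adjusted p = 0.000907). ERCC5, the nuclease that cuts on the 3′ side, was at 21.8, 24.2 and 22.7 TPM in Ctrl A, B and C and 15.9, 15.5 and 16.6 TPM in rhLUM A, B and C. It was lower in every rhLUM library, with a log2 fold change of -0.49 ± 0.06 (SE, adjusted p = 0.000181), and -0.87 after that correction. Its exons coincide over 64.4% with the read-through gene BIVM-ERCC5, listed at 0.04 TPM in Ctrl and 1.37 TPM in rhLUM.

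ERCC2, a helicase of the transcription factor TFIIH, rose from 8.79 to 12.1 TPM (log2 fold change 0.42, adjusted p = 0.00128, and 0.26 after scaling), and ERCC3, the other helicase, from 29.8 to 33.8 TPM (0.18, 0.0211). The ERCC3 call was lost without Ctrl A (adjusted p = 0.0691) or rhLUM B (0.0564), and its value was 0.01 after scaling and -0.11 after the length and GC correction. DDB1, an adaptor of the damage-sensing ligase, rose from 79.2 to 89.8 TPM as deposited (0.18, adjusted p = 0.000937) but stood at 0.01 after scaling and passed as lower, at -0.20, after the length and GC correction. ERCC1 (0.09) and ERCC4 (-0.13), which together cut on the 5′ side, and DDB2, the lesion-binding partner of DDB1 (-0.14), did not pass as deposited. ERCC4 and DDB2 passed as lower after scaling (adjusted p = 0.0199 and 0.0393). CD3EAP on the other strand shares 36.6% of the exon length of ERCC1.

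MGMT, which removes alkyl groups from guanine without cutting the strand, was at 11.8, 11.5 and 11.6 TPM in Ctrl A, B and C and 10.6, 11.7 and 9.90 TPM in rhLUM A, B and C. The groups overlapped, and the log2 fold change of -0.11 did not pass as deposited (adjusted p = 0.205). It passed as lower after scaling (-0.26, adjusted p = 0.0138) and after the length and GC correction (-0.19, adjusted p = 0.0487).

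The checkpoint kinases moved in opposite directions within each pair, as deposited and after scaling. Among the 6 genes of break sensing and checkpoint signalling 3 rose and 2 fell, as deposited and after scaling, and 1 rose and 3 fell after the length and GC correction. As deposited 83.3% passed, against 66.8% of all genes tested. CHEK1, the kinase that halts the cycle when forks stall, lies at chr11:125625136-125676255, plus strand and was at 21.7, 21.4 and 20.3 TPM in Ctrl A, B and C and 42.3, 42.9 and 37.8 TPM in rhLUM A, B and C. Its rhLUM libraries were all well above the Ctrl libraries, with a log2 fold change of 0.92 ± 0.06 (SE, adjusted p = 1.02e-05). CHEK2, the kinase that answers breaks, was at 19.8, 22.4 and 23.3 TPM in Ctrl A, B and C and 13.7, 16.5 and 17.1 TPM in rhLUM A, B and C. The rhLUM libraries were all lower, with a log2 fold change of -0.45 ± 0.10 (SE, adjusted p = 0.0046), and the CHEK2 pseudogenes in the tables were listed at 0.

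Upstream of them, ATM, which activates CHEK2, was at 35.9, 31.3 and 32.1 TPM in Ctrl A, B and C and 48.3, 41.3 and 49.1 TPM in rhLUM A, B and C. It was higher in every rhLUM library, with a log2 fold change of 0.47 ± 0.08 (SE, adjusted p = 0.00154), and 0.30 after scaling. ATR, which activates CHEK1, was at 26.8, 26.2 and 26.2 TPM in Ctrl A, B and C and 20.8, 23.2 and 21.6 TPM in rhLUM A, B and C. All its rhLUM libraries were lower, with a log2 fold change of -0.26 ± 0.05 (SE, adjusted p = 0.00297), and -0.42 after scaling, so as deposited each apical kinase moved opposite to the effector kinase it is known to activate. After the length and GC correction ATM stood at 0.01 (adjusted p = 0.927) and ATR at -0.80, and the other kinases kept their calls. NBN, which brings ATM to breaks, was at 56.6, 58.9 and 52.6 TPM in Ctrl A, B and C and 81.2, 79.9 and 85.7 TPM in rhLUM A, B and C. Its log2 fold change was 0.55 ± 0.05 (SE, adjusted p = 5.97e-05) with no overlap, and 0.09 (adjusted p = 0.105) after the length and GC correction. RAD50, in the same complex, was at 24.2 ± 1.67 TPM in Ctrl and 25.5 ± 1.09 TPM in rhLUM (0.08, adjusted p = 0.307), and passed as lower only after the length and GC correction (-0.46).

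**Figure D4:**
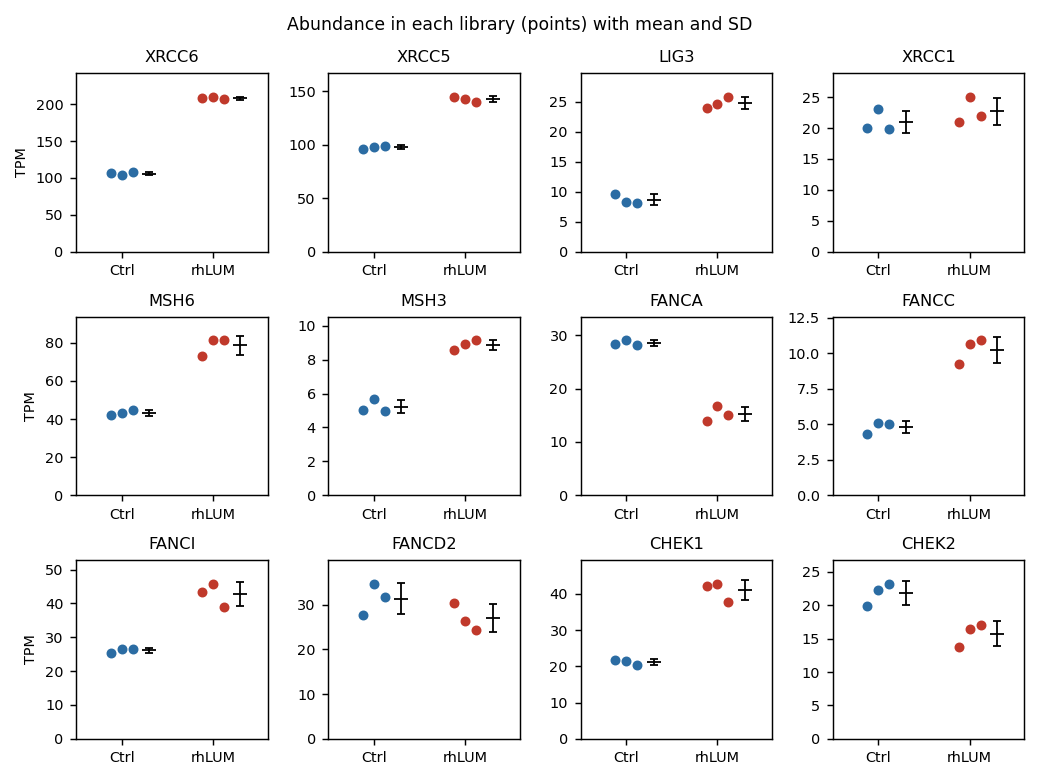
Level in TPM of 12 repair genes in each library (points, Ctrl in blue and rhLUM in red), with the mean and SD of each group beside them. XRCC6, LIG3, MSH6, FANCC and CHEK1 are higher in every rhLUM library and FANCA and CHEK2 lower in every one, while XRCC1 and FANCD2 overlap.

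The balance between partners does not depend on how libraries are scaled, since both genes of a pair are read in the same library. It can still depend on transcript length and GC content, for which the ratios were not corrected. For example, the log2 fold changes of DDB1 and DDB2 were 0.18 and -0.14 as deposited and -0.2 and -0.16 after the length and GC correction. Over 21 pairs of genes that act together or as alternatives, the ratio did not overlap between the groups for 18 (85.7%), against 72.5% of all 1485 pairs that the 55 genes can form. The direction of a ratio depends on which gene is put on top, so no count of directions is given. With 3 libraries a group an exact permutation test cannot go below p = 0.10, so the ratios are given as descriptions. CHEK1 over CHEK2 went from 0.976 ± 0.112 to 2.63 ± 0.437 (SD, n = 3 a group). LIG3 over XRCC1 went from 0.416 ± 0.0621 to 1.10 ± 0.104. The ligase was thus listed below its scaffold in every Ctrl library and near or above it in the rhLUM libraries (0.98 to 1.18).

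For XPC over XPA the ratio was 1.17 ± 0.024 in Ctrl and 3.08 ± 0.67 in rhLUM, and for FANCI over FANCD2 it was 0.839 ± 0.0773 and 1.59 ± 0.162. ATM over ATR stood at 1.25 ± 0.0755 and 2.13 ± 0.302. Within the Ku dimer, XRCC6 over XRCC5 was 1.09 ± 0.0269 in Ctrl, near parity, and 1.46 ± 0.0227 in rhLUM. As written, the ratios that went down were LIG4 over XRCC4 (0.365 ± 0.00863 to 0.281 ± 0.00659) and RAD51C over XRCC3 (6.87 ± 1.43 to 4.38 ± 0.337), and those that overlapped were PRKDC over XRCC5, FANCA over FANCG and MSH6 over MSH3. A ratio shows unequal change of its genes and not which of them moved.

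**Figure D5:**
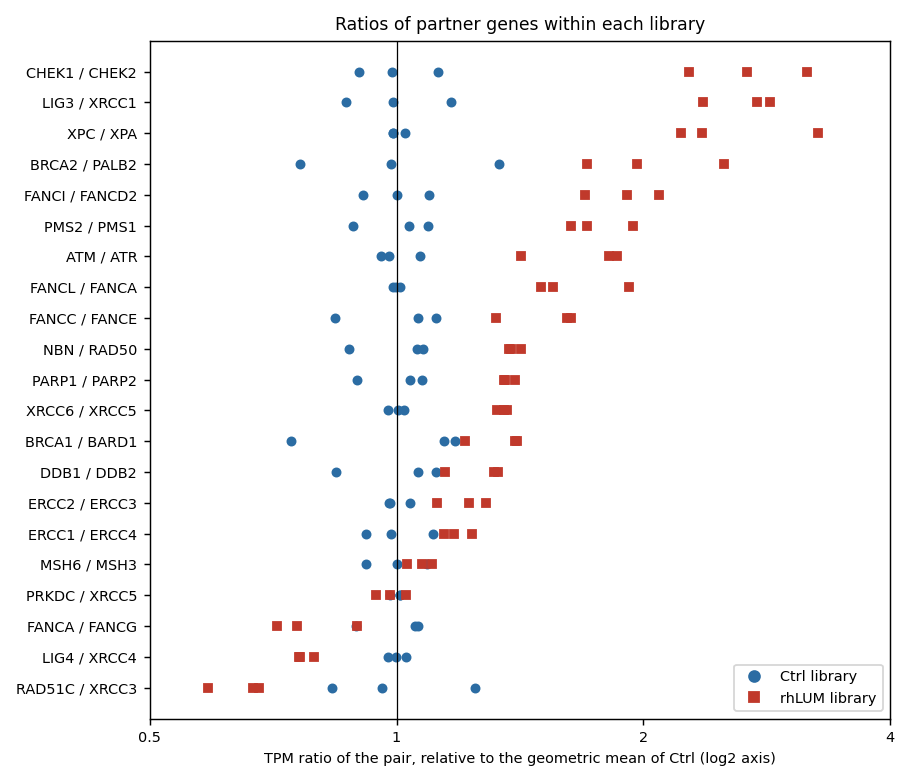
TPM ratio of each of 21 partner pairs in each library, divided by the geometric mean of its Ctrl libraries, on a log2 axis (circles Ctrl, squares rhLUM). Squares of CHEK1 over CHEK2, LIG3 over XRCC1 and XPC over XPA lie far to the right of the circles, those of LIG4 over XRCC4 and RAD51C over XRCC3 to the left, and those of PRKDC over XRCC5 among them.

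Other genes of the same pathways, from a list of 119 of which 108 were found and 107 tested, gave 55 higher, 18 lower and 34 not past the threshold, with a median log2 fold change of 0.23. Their share past the threshold, 68.2%, was close to the 66.8% of all genes tested. After scaling they were 39 higher and 32 lower, and after the length and GC correction 30 higher and 32 lower. In recombination 13 of 24 rose and 5 fell, among them RPA1, which coats single strands (41.6 ± 1.10 TPM in Ctrl and 72.7 ± 3.45 TPM in rhLUM), and the helicase RECQL (41.5 ± 1.07 TPM in Ctrl and 69.0 ± 0.654 TPM in rhLUM). In end joining 3 of 8 rose and 1 fell, with RIF1, an effector of TP53BP1, at 13.9 ± 0.439 TPM in Ctrl and 28.2 ± 0.507 TPM in rhLUM and TDP2 at 108 ± 3.08 TPM in Ctrl and 160.0 ± 2.87 TPM in rhLUM. Among Fanconi anaemia genes 6 of 11 rose and 3 fell, and both USP1 (0.47), which removes ubiquitin from FANCI and FANCD2, and its activator WDR48 (0.80) were higher on the log2 fold change scale.

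Among other base excision and single-strand break repair genes 5 of 16 rose and 3 fell, with a median of 0.01. PARG, which removes poly(ADP-ribose), rose (7.34 ± 0.625 TPM in Ctrl and 16.2 ± 0.334 TPM in rhLUM). In nucleotide excision repair 9 of 17 rose and 2 fell, led by CUL4B (0.95) and GTF2H3 (1.08). In mismatch repair 5 of 10 rose and 2 fell, with the polymerase subunits POLD2 (0.62) and POLD4 (-0.35) on opposite sides. Of 21 other checkpoint genes 14 rose and 2 fell, including WEE1, which restrains entry into mitosis (23.1 ± 1.64 TPM in Ctrl and 51.2 ± 0.670 TPM in rhLUM), and RNF8 (8.85 ± 0.627 TPM in Ctrl and 16.8 ± 0.730 TPM in rhLUM).

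Of 10 markers listed for the line and for liver carcinoma, KRT8, KRT18 and ALB were abundant, while GPC3 and APOA1 were under the 1 TPM mean. This list too differed between the groups, with a summed level of 2303 to 2329 TPM in Ctrl and 4522 to 4547 TPM in rhLUM. As deposited 6 of the 8 tested rose and none fell (ALB from 289 to 825 TPM, HNF4A from 11.8 to 25.9 TPM), against 44.5% higher over all genes tested. AFP, at 31.2 TPM in Ctrl and 28.6 TPM in rhLUM, did not pass as deposited. By limma it passed as lower after scaling (adjusted p = 0.00866), without mitochondrial genes (0.0283) and after the length and GC correction (0.00257). Of 23 markers of cycling cells 18 were higher and 2 lower (TOP2A and PCNA), so that 87.0% passed, against 66.8% of all genes tested. The median log2 fold change of these markers was 0.62, against 0.18 for the repair genes. After the length and GC correction the medians were 0.4 and -0.06. The cycling markers had a summed level of 1337 to 1368 TPM in Ctrl and 1887 to 1905 TPM in rhLUM. Leukocyte markers summed to 213 to 215 TPM in Ctrl and 298 to 301 TPM in rhLUM, nearly all of it LYZ and CD68, which rose, with PTPRC and CD3E near 0 and 5 of the 7 under the filter. Endothelial markers summed to 21.6 to 23.0 TPM and 26.9 to 31.8 TPM with VWF and TEK near 0. Of the 3 endothelial markers tested PECAM1 rose (16.4 to 25.3 TPM), CDH5 fell (3.10 to 0.45 TPM) and KDR did not pass. Sums of fibroblast markers were 6.21 to 7.73 TPM and 8.44 to 12.7 TPM with PDGFRA near 0, and those of erythroid markers 2.95 to 3.5 TPM and 2.09 to 2.91 TPM. The part of any of these lists in the repair results was not tested.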

How the data were processed

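RNA was sequenced from 6 MHCC97L xenograft libraries, 3 Ctrl and 3 rhLUM, poly-A selected per the labels' protocols. The authors deposited TPM per gene symbol, per the file headers, made with RSEM 1.2.31, STAR 2.7.8 and the build GRCh38, per the submitters' processing notes. The sources used here do not give the annotation release, the use of strand or any removal of mouse reads. TPM keeps no depth, so the depth is unknown and no counting interval is given. The 2210 rows that shared a symbol were left out. limma 3.58.1 (R 4.3.3) was fitted to log2(TPM + 1) over the 14781 genes averaging 1 TPM or more, with a variance trend, group as the only term and 4 residual degrees of freedom. P-values were two-sided and adjusted by Benjamini-Hochberg over all genes tested. This scale understates the fold change of low genes. Over the repair genes the coefficient of variation between replicates had a median of 5.18% in Ctrl and 6.22% in rhLUM. Coordinates, lengths and GC content came from GENCODE 29, matched by symbol, with both for 86.8% of genes tested and all 55 repair genes. The length and GC correction was a loess fit with a span of 0.5. The fit was tested on simulated data.

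Every repair gene was given, with values per library for up to 3 genes per pathway with the smallest p past the threshold for genes moving against the majority of their pathway's called genes, and for the 3 most abundant. FANCD2 and MGMT were given so too, chosen after their values were seen. In lists of other genes up to 2 with the smallest p were named. A gene that this rule names is not reported here. The members and lists were chosen with earlier results of these data known. Alternatives were another scaling, mitochondrial genes left out, a pseudocount of 0.1, no filter, the replicate letter as a block, no trend, shared symbols summed, the length and GC correction and leaving out each library, and, chosen after seeing the data, a test against a fold change of 1.2.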

Additional observations from a re-analysis of the deposited data

How the results depend on the processing

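Of the 37 repair genes called, 32 kept their call in every fit that left out 1 library, with BLM, FANCE, FANCL, TP53BP1 and ERCC3 the exceptions, and 27 kept it after scaling, without mitochondrial genes and after the length and GC correction. The pseudocount of 0.1 and summing shared symbols changed no call of a repair gene. With the replicate letters as a replicate block 36 repair genes passed (27 higher and 9 lower), and 6429 genes higher and 3219 lower in all. FANCE was lost in that fit (adjusted p = 0.0779). The letters were not taken as pairs because nothing in the labels says that they pair the samples. Same-letter deviations had r = 0.0292 for A, -0.0228 for B and 0.0835 for C. Between unlike letters r ran from -0.0835 (Ctrl C with rhLUM A) to 0.0505 (Ctrl B with rhLUM A). The causes of the changes below were not tested.

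Counts moved as follows. Testing against a fold change of 1.2 gave 6001 genes, 4190 higher and 1811 lower, and 23 repair genes with 4 lower, of which recombination had 2 higher and 0 lower, nucleotide excision repair 1 higher, and the checkpoint group 0 lower. The length and GC correction gave 4324 genes higher, 18 repair genes higher and 22 lower, with recombination at 2 and 4, Fanconi anaemia at 6 lower, mismatch repair at 1 lower, end joining at 3 and 2, base excision repair at 1 lower, nucleotide excision repair at 2 and 4, and the checkpoint group at 1 higher. Scaling gave 17 repair genes lower, with recombination at 4 lower, Fanconi anaemia at 5 lower, base excision repair at 1 lower and nucleotide excision repair at 2 higher and 4 lower. Without mitochondrial genes Fanconi anaemia had 5 lower and nucleotide excision repair 2 higher. With no filter, recombination had 1 lower gene, and leaving out 1 library gave it 1 to 2.

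Log2 fold changes that changed sign were, after scaling, BARD1 (-0.00051), RAD54L (-0.086), PMS1 (-0.14), LIG4 (-0.023), XRCC1 (-0.052), PARP2 (-0.15), ERCC1 (-0.073) and RAD50 (-0.086). Without mitochondrial genes they were RAD54L (-0.035), PMS1 (-0.078), PARP2 (-0.10), ERCC1 (-0.015) and RAD50 (-0.028). After the length and GC correction they were BARD1 (-0.25), BRIP1 (-0.075), RAD54L (-0.21), FANCF (-0.17), PMS1 (-0.26), PRKDC (-0.046), LIG4 (-0.32), TP53BP1 (-0.21), XRCC1 (-0.041), PARP2 (-0.19), ERCC1 (-0.017), ERCC3 (-0.11), DDB1 (-0.20) and RAD50 (-0.46). Leaving out 1 library turned the sign of genes that had not passed, whose values over the 6 such fits were RAD54L (-0.029 to 0.13), XRCC2 (-0.035 to 0.011), PMS1 (-0.087 to 0.12), PARP2 (-0.022 to 0.026) and POLB (-0.082 to 0.019).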

Other observations

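Some repair genes have an outermost annotated start close to that of a neighbour read from the other strand. By GENCODE 29, 13 of the 55 repair genes (23.6%) had such a divergent neighbour within 1000 bases, against 9.78% of the 11656 protein-coding genes tested. The outermost end of each gene was taken as its start, and the start mainly used can lie elsewhere. Of the 13 neighbours, 11 were themselves tested. In 7 pairs both genes passed the threshold as deposited, 4 in the same direction and 3 in opposite directions. Over all 479 divergent pairs with both genes tested, both passed in 49.7%, and 66.4% of those moved in the same direction. After scaling both genes passed in 8 of the 11 pairs, 3 in the same direction and 5 in opposite directions (46.2% and 61.1% over all such pairs). BRCA1 (log2 fold change 0.56) and NBR1 (0.76), an autophagy receptor, both rose, and their outermost annotated starts lie 236 bases apart. PRKDC (0.52) and the replicative helicase subunit MCM4 (0.61) also both rose, and theirs lie 2 bases apart. Whether the genes of any pair share a start region in these cells was not tested. XRCC6 (0.97) rose while DESI1 (-0.48), 23 bases away, fell from 36.2 ± 0.465 TPM to 25.7 ± 1.12 TPM (SD, n = 3 a group). APEX1 (0.32) rose while OSGEP (-0.44), 86 bases away, fell, and RAD52 (-0.53) fell while ERC1 (1.40), 456 bases away, rose from 3.24 ± 0.207 TPM to 10.2 ± 0.815 TPM. The RefSeq promoter window of RAD52 (chr12:949645-949944) lay far from the gene end used here (position 990053). RAD52 and ERC1 may therefore not share a start region. After scaling XRCC6 and DESI1 stood at 0.80 and -0.64, and RAD52 and ERC1 at -0.69 and 1.26, both on opposite sides of 0 as before. PMS2 and AIMP2, which both rose as deposited (0.72 and 0.11), stood at 0.58 and -0.06 after scaling.

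PALB2, which did not pass as deposited (-0.07), starts 82 bases from DCTN5, a dynactin subunit that rose from 35.3 ± 0.565 TPM to 82.2 ± 1.87 TPM (log2 fold change 1.2, adjusted p = 2.93e-07 by limma). LIG4 and ABHD13, 11 bases apart, stood at 0.11 and 0.46.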
